A study of Mus musculus with 2 samples.

Results

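The cytosolic ribosomal protein genes encode the protein part of the ribosome that translates messenger RNA in the cytoplasm. They were taken as the genes of GENCODE biotype protein coding whose symbol is Rpl or Rps followed by a number and at most an a, x, l or numeric suffix, together with Rplp0, Rplp1, Rplp2 and Rpsa. The rule gave 84 of the 43346 genes in the tables, which hold 21474 protein-coding genes. Of the members, 46 encode proteins of the large (60S) subunit, 31 encode proteins of the small (40S) subunit and 7 are paralogs of another member (Rpl3l, Rpl7l1, Rpl10l, Rpl22l1, Rpl36al, Rpl39l and Rps27l). A further 5 genes fitted by symbol but not by biotype and were left out, among them Rps4l, a transcribed pseudogene.

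PolyA-selected RNA longer than 200 nt was sequenced as stranded paired reads of 76 nt from tissue labelled large intestine, taken from 8-week-old mice of the inbred strain C57BL/6J. The labels give 1 group with 2 libraries, replicate 2 and replicate 1, each from pooled littermates of both sexes and both filed under 1 donor record. No condition was compared, so the results are the level of each member and the ratio of 1 library to 1 library, which has no replicate check and no p-value. Each error is an SD over the pair of libraries (n = 2). How much of that spread is technical was not tested, and the libraries also differed in Xist and Y-linked genes, as given below.

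The replicate 2 library held 58233142 expected counts (the authors' estimated reads per gene) and the replicate 1 library 50189619, and 65.0% of 17110 genes with at least 20 counts differed between them beyond counting error, which separates them from a single library entered under both names. The tissue label was not borne out by markers. The 5 colon epithelium markers, Car1, Aqp8, Atp12a, Scnn1b and Scnn1g, summed to 0.32 TPM (transcripts scaled for length to the same total in each library) in replicate 2 and 0.30 TPM in replicate 1, with Scnn1g at 0 in both. The 4 Paneth cell markers Lyz1, Ang4, Mmp7 and Itln1, which mark small intestinal crypts, summed to 10816 TPM in replicate 2 and 7441 in replicate 1. Of the 4 small intestine enterocyte markers, Fabp6 was higher in replicate 2, at 5279 TPM in replicate 2 and 477 in replicate 1, whereas Sis, Lct and Apoa4 were higher in replicate 1, with Apoa4 at 91.1 TPM in replicate 2 and 1094 in replicate 1. Their sum, 5459 TPM in replicate 2 and 2004 in replicate 1, is therefore mostly Fabp6 in replicate 2. The plasma cell markers Igha, Jchain, Mzb1 and Xbp1 summed to 9956 TPM in replicate 2 and 19628 in replicate 1, mostly Igha, and Xbp1 alone was higher in replicate 2. Xist, which is transcribed in female cells, stood at 20.4 TPM in replicate 2, against 0.02 TPM in replicate 1, while the 4 Y-linked genes read ranged up to 0.01 TPM in replicate 2 and lay between 2.39 and 8.80 TPM in replicate 1. Both libraries are said to hold both sexes. The mitochondrial genome held 3.10% of the TPM of replicate 2 and 6.33% of that of replicate 1. What these differences contribute to the ribosomal protein values was not tested, and in bulk tissue fewer cells of a type and less RNA per cell cannot be told apart.

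A ribosome carries each of its core proteins in a single copy, except the paired acidic proteins of the stalk, so the subunits are assembled from equimolar sets. In mammals the mRNAs of these proteins belong to the TOP class, which start with a C and a run of pyrimidines at the 5′ end, and their translation responds together to the kinase mTOR. In the mammalian genome nearly every ribosomal protein gene has given rise to processed pseudogenes, intronless copies made by reverse transcription of its mRNA. In the intestine the crypt epithelium divides continuously, and dividing cells build ribosomes at a high rate.

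DNA around the start of the highest members is shown for its pyrimidine runs. RefSeq (build GRCm38.p6) listed a start for 64 of the 84 members, and the most upstream listed start of each gene was used. In 55 of the 64 it lay within 20 bases of the 5′ end of the RefSeq gene, and the others, among them Rps12 and Rps2, are not shown. The stretches run from 40 bases before to 20 bases after the start of the 5 highest members with such a start, followed by Rpl3l and Rpl10l, paralogs at or near 0 TPM, with the longest run of C and T in capitals.
Rps21, chr2:180257339-180257398, plus strand: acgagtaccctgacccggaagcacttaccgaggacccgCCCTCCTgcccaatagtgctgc
Rpl13a, chr7:45128726-45128785, minus strand: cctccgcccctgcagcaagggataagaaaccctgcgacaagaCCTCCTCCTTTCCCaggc
Rpl34, chr3:130730379-130730438, minus strand: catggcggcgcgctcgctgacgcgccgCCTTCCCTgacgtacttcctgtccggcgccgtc
Rpl41, chr10:128549149-128549208, minus strand: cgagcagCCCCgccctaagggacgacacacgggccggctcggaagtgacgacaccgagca
Rplp0, chr5:115559427-115559486, plus strand: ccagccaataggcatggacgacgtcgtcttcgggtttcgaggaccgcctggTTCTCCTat
Rpl3l, chr17:24727786-24727845, plus strand: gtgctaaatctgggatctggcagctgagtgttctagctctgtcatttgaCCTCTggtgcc
Rpl10l, chr12:66284382-66284441, minus strand: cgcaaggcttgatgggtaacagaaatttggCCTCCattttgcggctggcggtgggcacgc

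A run of at least 8 pyrimidines lay within these 60 bases in 31 of the 64 members with a listed start (48.4%), against 24.0% of the 27025 genes in the RefSeq table, which includes the members. The hexamer CTTTCC on the sense strand, within 50 bases on either side of the start, was found in 17 members (26.6%) and in 4.67% of all genes. The same hexamer on the other strand was found in 2 members (3.13%) and in 4.24% of all genes. The letters CCGGAAG, a core recognised by ETS factors, were found on either strand of the 300-base window in 25 members (39.1%) and in 9.14% of all genes. The letters AAGATGG, recognised by YY1, were found on either strand of that window in 10 members (15.6%) and in 6.46% of all genes, and the GC box GGGCGG in 39 members (60.9%) and in 35.9% of all genes. The letters TATAAA, searched on the sense strand between 40 and 20 bases before the start, were found in 1 member, a paralog, and in 2.08% of all genes. None of these motifs holds another, but their matches may overlap or fall within a pyrimidine run. These matches describe the letters in the windows and were set against no measurement of binding. The 300-base windows had a median GC content of 57.5% in members and 52.7% in all genes, and the motif shares were not adjusted for it.

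Ribosomal protein genes held 6.85% of the TPM of replicate 2 and 6.47% of that of replicate 1, which is 6.66% ± 0.266 (SD, n = 2). TPM corrects for effective length, and since these mRNAs are short, the members' share of the expected counts was smaller, at 3.10% in replicate 2 and 2.59% in replicate 1. All 81 members with a mean of at least 1 TPM lay above 10 TPM in both libraries, 69 lay at 100 TPM or more and 22 at 1000 TPM or more. The 5 highest members held 27.7% of the members' TPM in each library, and the 20 highest held 63.8% in replicate 2 and 63.1% in replicate 1. Summed levels of the large subunit exceeded those of the small subunit, at 35633 against 32540 TPM in replicate 2 and 34850 against 29585 TPM in replicate 1, a ratio of 1.10 in replicate 2 and 1.18 in replicate 1. Per gene the order was the other way. The median large subunit gene stood at 458 TPM in replicate 2, against 456 TPM in replicate 1, and the median small subunit gene at 702 TPM in replicate 2 and 644 in replicate 1.

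The mRNAs of a structure built from equal numbers of its proteins were themselves far from equal. Over the 77 members that are not paralogs, TPM ranged between 14.4 and 5522 in replicate 2 and between 14.5 and 5726 in replicate 1. The 90th percentile lay 19.0-fold above the 10th in replicate 2 and 18.1-fold in replicate 1, and the SD of log2 TPM over the 77 genes was 1.66 in each library. Both libraries ordered the genes almost alike, with Pearson's r of 0.99 for log2(TPM + 1) across the 77 genes, against 0.95 across all 13512 genes at a mean of at least 1 TPM. These correlations run across genes of 2 libraries quantified with the same lengths and are descriptions only.

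**Figure D1:**
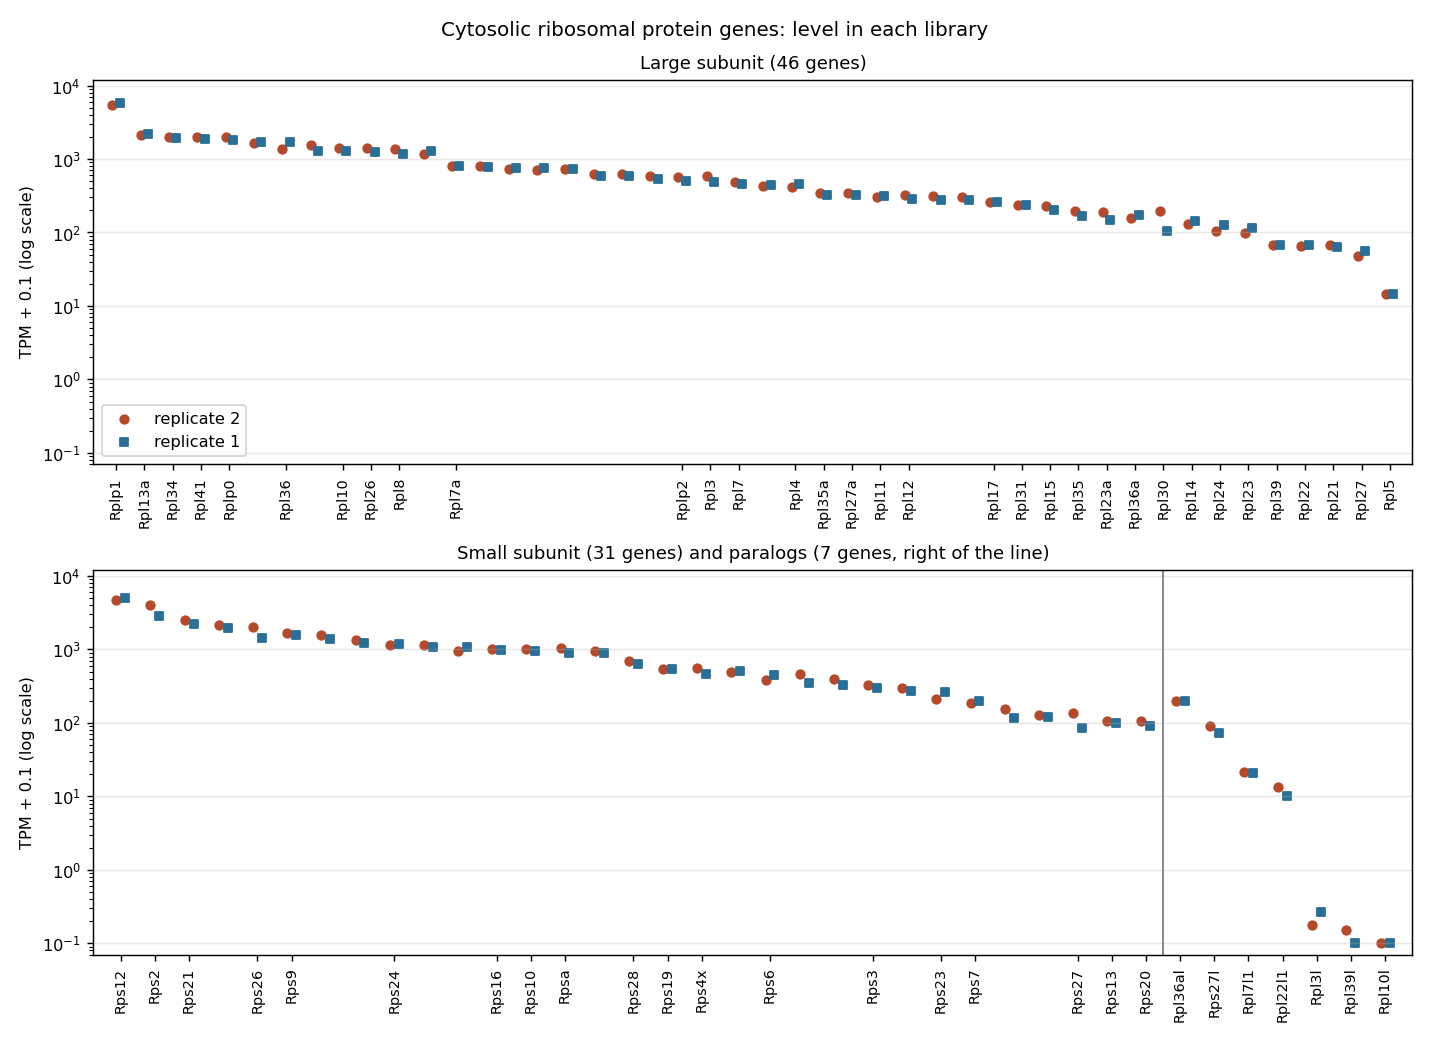
Level of each of the 84 members in TPM + 0.1 on a log scale, with large subunit genes in the upper panel, small subunit genes and paralogs in the lower panel, 1 point for each library (circles replicate 2, squares replicate 1) and names for genes described in the text. Rplp1 (5522 TPM in replicate 2 and 5726 in replicate 1) and Rps12 (4772 TPM in replicate 2 and 5028 in replicate 1) lead their subunits, Rpl5 (14.4 TPM in replicate 2 and 14.5 in replicate 1) is the lowest gene that is not a paralog, and Rpl3l, Rpl39l and Rpl10l lie at the bottom.

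The stalk, the flexible arm of the large subunit that recruits elongation factors, held the most abundant member and some much lower partners. Rplp1, an acidic stalk protein, was at 5522 TPM in replicate 2, against 5726 TPM in replicate 1, the highest of all members in both. Its dimer partner Rplp2 was at 577 TPM in replicate 2 and 495 in replicate 1. Rplp0, which anchors both to the ribosome, was at 2013 TPM in replicate 2 and 1839 in replicate 1. Rpl12, at the base of the stalk, stood at 320 TPM in replicate 2 and 286 in replicate 1. With its near-identical copies, described below, Rpl12 came to 990 TPM in replicate 2 and 1003 in replicate 1, still below Rplp1. The gap between the dimer partners went the same way in both libraries and was wider than the spread of either.

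Genes for proteins around the peptidyl transferase centre stood in the upper and middle range of TPM. Rpl10, a late-joining protein that completes the large subunit, was at 1429 TPM in replicate 2, against 1277 TPM in replicate 1. Rpl8 was at 1348 TPM in replicate 2 and 1166 in replicate 1. Rpl3, which reaches into the centre, stood at 582 TPM in replicate 2 and 481 in replicate 1. Genes for proteins that line or surround the exit of the polypeptide tunnel, for which no list was fixed, covered a wide range. Rpl26 was above Rpl3 at 1415 TPM in replicate 2 and 1241 in replicate 1. Rpl4 was at 413 TPM in replicate 2 and 455 in replicate 1. Rpl17 stood at 259 TPM in replicate 2 and 258 in replicate 1. Rpl31 stood at 235 TPM in replicate 2 and 236 in replicate 1. Rpl35 stood at 196 TPM in replicate 2 and 170 in replicate 1. Rpl4, Rpl17, Rpl31 and Rpl35 lay below Rpl3 in both libraries. Rpl23a, a docking site for the signal recognition particle, was at 189 TPM in replicate 2 and 149 in replicate 1. Rpl39, a very small tunnel protein, stood at 67.6 TPM in replicate 2 and 68.1 in replicate 1, the lowest of those named here in both. Some of these values leave out near-identical copies, described below. With copies, Rpl23a came to 457 TPM in replicate 2 and 412 in replicate 1, and Rpl31 to 430 and 384. Rpl39 with copies came to 121 TPM in replicate 2 and 134 in replicate 1. Among large subunit genes with less specific roles, Rpl13a was at 2101 TPM in replicate 2 and 2161 in replicate 1. Rpl34 stood at 2007 TPM in replicate 2 and 1949 in replicate 1. Rpl41, which encodes a peptide of the subunit interface, stood at 2020 TPM in replicate 2 and 1875 in replicate 1.

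Genes for the proteins of the 5S ribonucleoprotein particle differed widely in TPM. Rpl5 and Rpl11 bind 5S ribosomal RNA together, and outside the ribosome this complex binds and inhibits Mdm2, the ubiquitin ligase of p53. Rpl11 was at 301 TPM in replicate 2, against 311 TPM in replicate 1, whereas Rpl5 was at 14.4 TPM in replicate 2 and 14.5 in replicate 1, the lowest value of any member that is not a paralog. The deposited 95% bounds on its TPM spanned 35.3% of the value in replicate 2 and 34.1% in replicate 1, the widest of any member above 10 TPM in replicate 2. The next lowest large subunit genes were Rpl27, Rpl21 and Rpl22. Rpl27 was at 48.1 TPM in replicate 2 and 55.6 in replicate 1. Rpl21 stood at 66.5 TPM in replicate 2 and 63.5 in replicate 1. Rpl22 stood at 66.3 TPM in replicate 2 and 68.1 in replicate 1. How far these low values depend on near-identical copies elsewhere in the genome is given with the copies.

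In the small subunit the highest gene was Rps12, a protein of the head, at 4772 TPM in replicate 2, against 5028 TPM in replicate 1. Rps2 and Rps3 lie at the entry of the mRNA channel. Rps2 was at 4086 TPM in replicate 2 and 2815 in replicate 1, the largest absolute gap of any member, and Rps3 was at 323 TPM in replicate 2 and 301 in replicate 1. Rps21 was at 2515 TPM in replicate 2 and 2225 in replicate 1. It was closer between the libraries than Rps2. Rps26, at the exit of the channel, was at 2004 TPM in replicate 2 and 1421 in replicate 1. Rps23, whose loop reaches the decoding centre, was at 212 TPM in replicate 2 and 264 in replicate 1. Rps6, the substrate of the S6 kinases, stood at 382 TPM in replicate 2 and 443 in replicate 1. Rps23 and Rps6 were the ones of this set lower in replicate 2, beside Rps12. Rpsa, also known as the laminin receptor precursor, was at 1037 TPM in replicate 2 and 909 in replicate 1. The small subunit genes with the lowest means were Rps20, Rps13 and Rps27, whose order differed between the libraries. Rps20 was at 105 TPM in replicate 2 and 90.1 in replicate 1. Rps13 stood at 106 TPM in replicate 2 and 99.0 in replicate 1. Rps27 stood at 135 TPM in replicate 2 and 85.4 in replicate 1.

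Of the genes mutated in human Diamond-Blackfan anaemia, a failure of red cell production, 9 are described here. They spanned most of the range, with Rps26, Rpl26, Rps24 and Rps10 near the top in both libraries. Rps26 was at 2004 TPM in replicate 2 and 1421 in replicate 1. Rpl26 stood at 1415 TPM in replicate 2 and 1241 in replicate 1. Rps24 stood at 1140 TPM in replicate 2 and 1170 in replicate 1. Rps10 stood at 1007 TPM in replicate 2 and 954 in replicate 1. The others lay below these 4 in both libraries. Rps19, the gene most often mutated, stood at 537 TPM in replicate 2 and 549 in replicate 1. Rpl35a was at 348 TPM in replicate 2 and 323 in replicate 1. Rps7 stood at 187 TPM in replicate 2 and 200 in replicate 1, and Rpl5 and Rpl11 are described above.

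The paralogs split into a group that was transcribed and a group that was not detected beyond a few reads. Rpl3l, which replaces Rpl3 in striated muscle, had 4 counts (0.08 TPM) in replicate 2 and 7 counts (0.17 TPM) in replicate 1. Rpl39l, a testis paralog of Rpl39, had 1 count (0.05 TPM) in replicate 2 and 0 counts in replicate 1. Rpl10l, the testis paralog that stands in for X-linked Rpl10 during meiosis, had 0 counts in both libraries, which allows a level of up to 0.0641 TPM in replicate 2, against 0.0836 TPM in replicate 1, at 3 counts and for counting error only. Rpl10 itself stood at 1429 TPM in replicate 2 and 1277 in replicate 1. The transcribed paralogs were Rpl36al, Rps27l, Rpl7l1 and Rpl22l1, in that order in both libraries. Rpl36al was at 198 TPM in replicate 2 and 197 in replicate 1. Rps27l stood at 91.0 TPM in replicate 2 and 73.2 in replicate 1. Rpl7l1 stood at 21.1 TPM in replicate 2 and 20.4 in replicate 1. Rpl22l1 stood at 13.4 TPM in replicate 2 and 10.1 in replicate 1. Rpl36al lay above its relative Rpl36a, which was at 156 TPM in replicate 2 and 173 in replicate 1, in both libraries. Rps27l, a p53 target in human cells, lay below Rps27 in both by TPM. By counts the order was reversed, with Rps27l at 1516 counts in replicate 2 and 935 in replicate 1. Rps27 had 334 counts in replicate 2 and 163 in replicate 1. The deposited bounds on TPM overlapped in replicate 1, at 71.1 to 100.3 for Rps27 and 68.8 to 78.2 for Rps27l. In replicate 2 they did not, at 119.5 to 151.4 for Rps27 and 86.5 to 95.7 for Rps27l. Rpl22l1 lay below Rpl22, and Rpl7l1 below Rpl7 at 485 TPM in replicate 2 and 456 in replicate 1. Rps4l, the pseudogene outside the rule, was at 110 TPM in replicate 2 and 112 in replicate 1 beside Rps4x at 562 TPM in replicate 2 and 468 in replicate 1.

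The members' levels lay close together in the libraries. No member of the 81 measured lay at least 2-fold apart between replicate 2 and replicate 1 by TPM, against 5.64% of all genes at a mean of at least 1 TPM, where 1.18% were at least 2-fold higher in replicate 2 and 4.46% at least 2-fold higher in replicate 1. At a mean of at least 100 TPM, 0 of 72 members and 9.32% of the 1212 genes lay at least 2-fold apart. At a 1.5-fold limit 2 members lay apart, Rpl30 and Rps27, against 17.5% of all genes. Ratios were taken as the log2 of TPM + 1, replicate 2 over replicate 1, a scale that understates differences of low genes. On it the members had an SD of 0.21 and all genes one of 0.62.

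**Figure D2:**
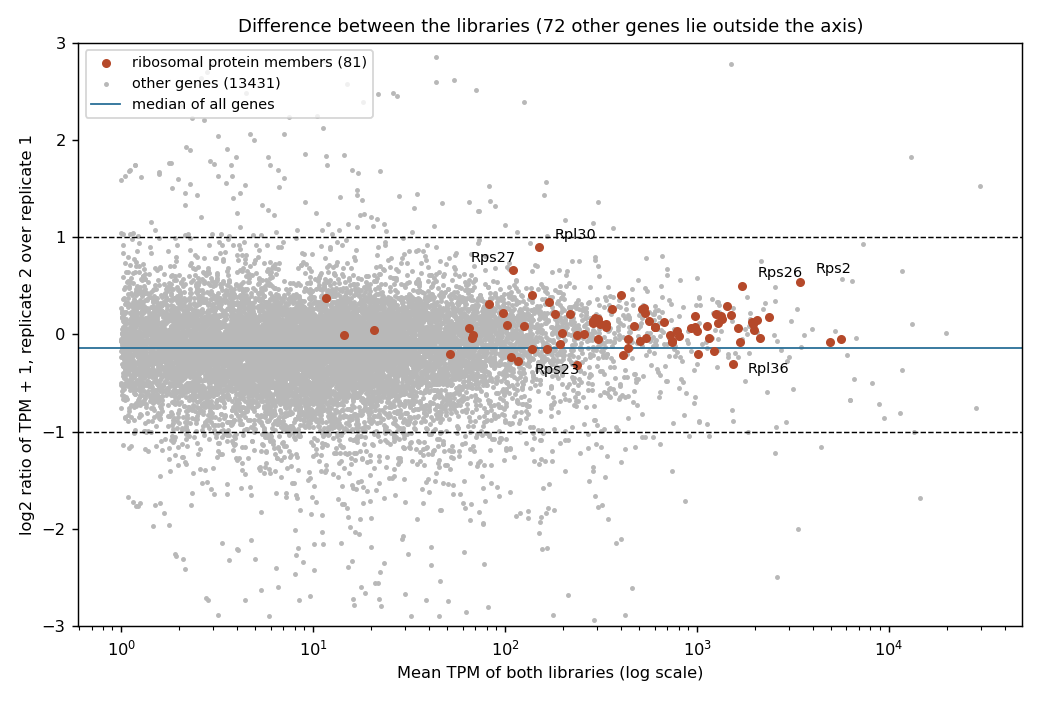
The log2 ratio of TPM + 1 in replicate 2 over replicate 1 against mean TPM on a log scale, for the 81 measured members (red) and 13431 other genes (grey), with the median of all genes as a blue line and 2-fold as dashed lines. Members lie between -0.32 and 0.90, all within the dashed lines, and 72 other genes lie outside the axis.

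The median member had a log2 ratio of 0.08, and the median of all genes was -0.14. Relative to that median, 71 of the 81 members were higher in replicate 2. So were 705 of the 1212 genes at a mean of at least 100 TPM and 62 of the 76 mitochondrial ribosomal protein genes. Relative to 0, 4504 of all 13512 genes were higher in replicate 2 by TPM. The sign relative to 0 rests on the scaling: 52 members were higher in replicate 2 by TPM, 74 by FPKM and by expected counts scaled with TMM, and 75 by DESeq2 size factors, and these scalings put the median of all genes at 0.00, 0.01 and 0.02. The members' median stayed between 0.14 and 0.25 above that of all genes under every scaling, filter and pseudocount tried. Large subunit genes had a median log2 ratio of 0.04 and small subunit genes one of 0.10.

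The largest ratios belonged to few genes. Rpl30 was at 196 TPM in replicate 2, against 105 TPM in replicate 1, a log2 ratio of 0.90. By other units it passed 2-fold, with a log2 ratio of 1.06 by FPKM and of 1.48 by expected counts scaled with TMM or DESeq2 size factors. Rps27 had a log2 ratio of 0.66 from 135 TPM in replicate 2 and 85.4 in replicate 1, which rest on 334 counts in replicate 2 and 163 counts in replicate 1. It was followed by Rps2 at 0.54 and Rps26 at 0.50. In the other direction Rps23 stood at -0.32, and Rpl36 at -0.31 from 1371 TPM in replicate 2 and 1697 in replicate 1. Rpl24, at the subunit interface, stood at -0.27, Rpl23 at -0.23 and Rps6 at -0.21. All of these kept their sign under every alternative scaling, except Rpl30, whose sign turned when its near-identical copies were added. The 4 X-linked members had log2 ratios of 0.16 for Rpl10, 0.26 for Rps4x, -0.15 for Rpl36a and -0.01 for Rpl39. A link of these ratios with the Xist difference was not tested.

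Other genes of the translation machinery also lay within 2-fold between the libraries, with a spread of log2 ratios that was like the members' or wider. Of the 76 mitochondrial ribosomal protein genes, led by Mrpl52 at 277 TPM in replicate 2, against 232 TPM in replicate 1, 0 were at least 2-fold apart, and their log2 ratios had a median of 0.04 and an SD of 0.21. They summed to 3651 TPM in replicate 2 and 3468 in replicate 1, so a mitochondrial ribosomal protein gene averaged far less than a cytosolic one. Elongation factors had a median log2 ratio of 0.20 and an SD of 0.27 over 7 genes, with Eef1a1 at 3246 TPM in replicate 2 and 2950 in replicate 1, a level that only Rplp1, Rps12 and, in replicate 2, Rps2 exceeded among the members. Initiation factors had a median of 0.06 and an SD of 0.30 over 28 genes, led by Eif4a1 at 287 TPM in replicate 2 and 265 in replicate 1, and ribosome biogenesis factors a median of 0.05 and an SD of 0.23 over 31 genes, led by Nop10 at 86.2 TPM in replicate 2 and 72.6 in replicate 1. In these 3 lists 0 genes were at least 2-fold apart.

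Lists of TOP genes and their regulators outside the ribosome had lower medians than the members, a difference that was not tested. Elongation factors, whose mRNAs are also of the TOP class, are given above and had a higher one. The 7 other TOP mRNAs had a median log2 ratio of -0.16, close to all genes, with Tpt1, a growth-related protein, at 1215 TPM in replicate 2, against 1354 TPM in replicate 1. The 5 measured TOP snoRNA host genes had a median of -0.15, led by Gas5 at 52.0 TPM in replicate 2 and 62.0 in replicate 1. The 14 genes of mTOR and TOP regulation had a median of -0.14, led by Eif4ebp2 at 56.1 TPM in replicate 2 and 90.3 in replicate 1. Of the 4 genes of the p53 axis that free Rpl5 and Rpl11 act on, 2 were at least 2-fold apart by TPM. Mdm2 was at 9.21 TPM in replicate 2 and 19.5 in replicate 1. Mdm4 stood at 14.0 TPM in replicate 2 and 29.2 in replicate 1, while Trp53 was at 66.3 TPM in replicate 2 and 70.5 in replicate 1. Cdkn1a stood at 161 TPM in replicate 2 and 173 in replicate 1. Neither Mdm2 nor Mdm4 was 2-fold apart by FPKM, at -0.84 and -0.85 on the log2 scale, or by expected counts scaled with TMM, at -0.47 and -0.45. Of ribosomal proteins whose symbols follow other rules, Rack1 was at 2030 TPM in replicate 2 and 1748 in replicate 1, and Fau, a fusion with a ubiquitin-like protein, at 541 TPM in replicate 2 and 708 in replicate 1, with a log2 ratio of -0.39.

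Copies of these genes elsewhere in the genome held reads that the members' own rows lack. Aligning the coding sequence of each member to all other annotated transcripts gave 417 genes that matched at least 95% of bases over at least 80% of the coding sequence, for 72 of the 84 members. Of the copies, 402 were annotated as processed pseudogenes, 18 were identical to the member over the whole coding sequence, 106 lay at a mean of at least 1 TPM and 24 at 100 TPM or more. Together they held 1.12% of the TPM of replicate 2 and 1.02% of that of replicate 1. Over an identical stretch a read fits the member and its copy equally, so the division between them is the estimate of the authors' quantification and not a measurement of which locus was transcribed.

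Stretches of the coding sequence show how little separates a member from its copy. Positions are counted from the A of the start codon, and capitals mark the bases that differ.
Rpl5, positions 1 to 60: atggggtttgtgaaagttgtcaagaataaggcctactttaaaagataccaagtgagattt
Gm15500, same positions: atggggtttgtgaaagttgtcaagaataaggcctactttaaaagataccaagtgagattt
Rps28, positions 1 to 60: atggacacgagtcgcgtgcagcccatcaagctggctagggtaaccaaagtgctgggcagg
Gm10443, same positions: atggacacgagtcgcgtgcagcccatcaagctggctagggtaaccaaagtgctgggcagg
Rpl30, positions 37 to 96: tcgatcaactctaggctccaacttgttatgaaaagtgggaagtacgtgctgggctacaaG
Gm12191, same positions: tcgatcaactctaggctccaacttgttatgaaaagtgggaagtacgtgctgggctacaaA
Rps13, positions 370 to 429: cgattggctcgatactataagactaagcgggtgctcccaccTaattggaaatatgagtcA
Rps13-ps1, same positions: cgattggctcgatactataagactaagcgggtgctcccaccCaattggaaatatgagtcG
Rpl14, positions 364 to 423: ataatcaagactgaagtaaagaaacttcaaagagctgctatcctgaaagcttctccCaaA
Rpl14-ps1, same positions: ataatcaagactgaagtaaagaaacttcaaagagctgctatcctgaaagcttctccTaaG

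Rpl5 and Gm15500 were identical over all 891 bases, as were Rps28 and Gm10443 over 207 bases. Rpl30 and Gm12191 differed only by G96A over 345 bases, and Rps13 and Rps13-ps1 by T411C and A429G over 453 bases. Rpl14 and Rpl14-ps1 differed at 4 bases over 651, of which C420T and A423G lie in the stretch shown.

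For 11 members the copies held more TPM than the member in both libraries, among them Rpl5, the lowest that is not a paralog. Beside Rpl5 at 14.4 TPM in replicate 2, against 14.5 TPM in replicate 1, its copies held 291 TPM in replicate 2 and 316 in replicate 1, nearly all in Gm15500, a transcribed processed pseudogene on chromosome 7 (mm10, 114705217 to 114706235, minus strand). Beside Rpl27 the copies held 492 TPM in replicate 2 and 513 in replicate 1, nearly all in Rpl27-ps3. Beside Rps27 at 135 TPM in replicate 2 and 85.4 in replicate 1, Rps27rt, a protein-coding retrogene identical to it over the coding sequence, held 1154 TPM in replicate 2 and 887 in replicate 1. Rpl14-ps1 held 671 TPM in replicate 2 and 659 in replicate 1 beside Rpl14 at 131 TPM in replicate 2 and 145 in replicate 1, and Rps13-ps1 held 330 TPM in replicate 2 and 346 in replicate 1 beside Rps13 at 106 TPM in replicate 2 and 99.0 in replicate 1. Gm10275 held 669 TPM in replicate 2 and 716 in replicate 1 beside Rpl12, and Gm7536 held 534 TPM in replicate 2 and 464 in replicate 1 beside Rpl27a at 343 TPM in replicate 2 and 325 in replicate 1. The other members of this group were Rpl15, Rpl21, Rpl23a and Rps28.

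**Figure D3:**
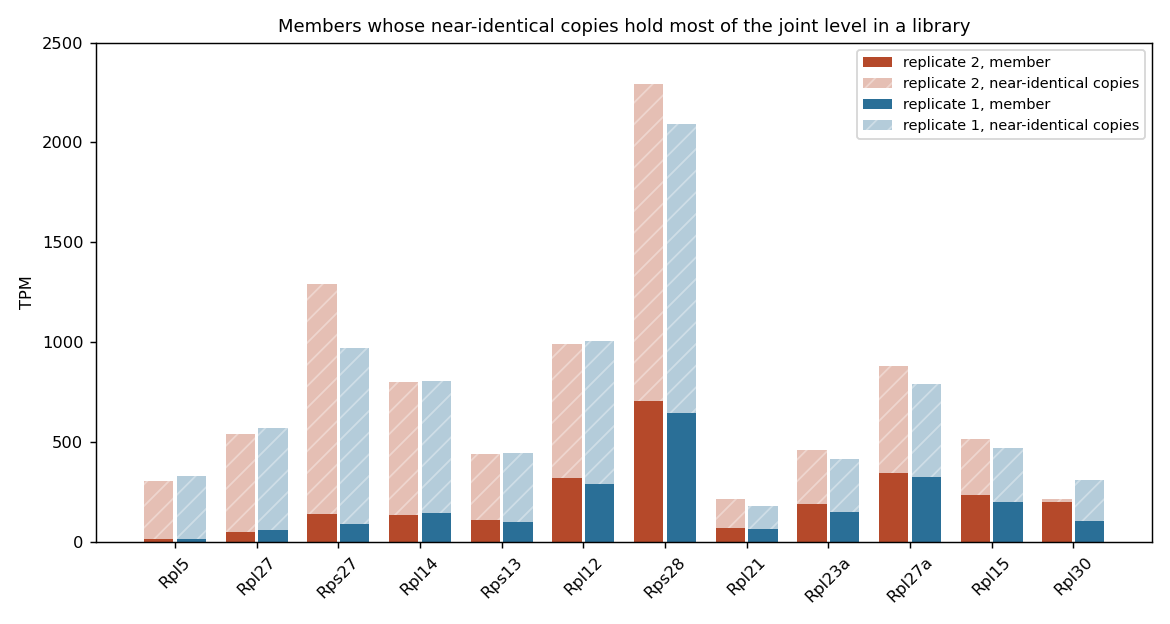
Stacked bars of TPM for the 12 members whose near-identical copies held most of the joint level in either library, with the member's own row solid, its copies hatched, and replicate 2 left of replicate 1. The copies exceed the member in both libraries for 11 genes and in replicate 1 alone for Rpl30.

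TPM magnifies the copy of Rps28. Gm10443 stood at 1587 TPM in replicate 2, against 1443 TPM in replicate 1, on only 505 counts in replicate 2 and 390 counts in replicate 1, whereas Rps28 itself had 7289 counts in replicate 2 and 5383 counts in replicate 1 for 702 TPM in replicate 2 and 644 in replicate 1. Rps27 was a like case within the members, with an effective length of 42.7 bases in replicate 2 and 43.2 bases in replicate 1 from an annotated transcript of 255 bases. Levels of genes with so short an effective length rest on few reads and a large correction.

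Adding the copies to their members narrowed the range of levels. The lowest member that is not a paralog was then Rpl22 at 66.4 TPM in replicate 2, against 68.1 TPM in replicate 1, where Rpl5 had been at 14.4 TPM in replicate 2 and 14.5 in replicate 1. Rpl5 with its copies came to 306 TPM in replicate 2 and 330 in replicate 1, beside Rpl11 with its copies at 439 TPM in replicate 2 and 419 in replicate 1. The 90th percentile over the 10th fell to 10.9-fold in replicate 2 and 11.1-fold in replicate 1 with copies, against 19.0-fold in replicate 2 and 18.1-fold in replicate 1 without, and the SD of log2 TPM to 1.38 in replicate 2 and 1.35 in replicate 1, against 1.66 in each. Members with copies took 7.97% of the TPM of replicate 2 and 7.49% of that of replicate 1, and Rps12 rather than Rplp1 was the highest, at 6031 TPM in replicate 2 and 6245 in replicate 1. With copies, 0 of 81 members lay even 1.5-fold apart between the libraries, and their median log2 ratio was 0.10. This summing was chosen after the values were seen, and it counts any transcription of the copies themselves as the member's.

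Rpl30 and its copy stood in opposite order in the libraries. In Saccharomyces cerevisiae the orthologous protein binds its own transcript and limits its splicing. Here Rpl30 was at 196 TPM in replicate 2, against 105 TPM in replicate 1, and Gm12191 at 15.7 TPM in replicate 2 and 204 in replicate 1 on 123 counts in replicate 2 and 1230 counts in replicate 1. Summed with all copies, Rpl30 came to 212 TPM in replicate 2 and 310 in replicate 1, a log2 ratio of -0.54, the lowest of any member so summed, where Rpl30 alone had the highest at 0.90. The transcripts within Rpl30 shifted as well. Rpl30-201, the leading protein-coding transcript, held 45.6% of the gene's TPM in replicate 2 and 16.2% in replicate 1, and Rpl30-205, annotated as a processed transcript without a coding sequence, held 16.3% in replicate 2 and 70.6% in replicate 1. Outside Rpl30 the widest shifts were those of Rpl22-204, at 22.9% of Rpl22 in replicate 2 and 0.04% in replicate 1, and Rpl22-208, at 0.10% in replicate 2 and 21.9% in replicate 1, which are 2051 and 2048 bases long.

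Among the copies themselves, 11 of the 106 at a mean of at least 1 TPM were at least 2-fold apart between the libraries. Of all 13512 genes at that mean, 762 (5.64%) were. Gm10020, a copy of Rpl15, was at 0.64 TPM in replicate 2, against 45.4 TPM in replicate 1. Rpl7a-ps11 stood at 14.0 TPM in replicate 2 and 0 in replicate 1. Both were near or at 0 in 1 library alone. Rpl3-ps1 was at 27.5 TPM in replicate 2 and 71.6 in replicate 1. Rps16-ps2 stood at 155 TPM in replicate 2 and 74.3 in replicate 1. Their members Rpl15, Rpl7a, Rpl3 and Rps16 had log2 ratios of 0.21, -0.01, 0.28 and 0.04.

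At the level of transcripts, most members were read as 1 coding form. The 84 genes had 374 transcripts in the tables, and 21 of the 81 measured members had a single one. Of the 60 with more, 57 had the same leading transcript in both libraries, and in 30 it held at least 90% of the gene's TPM in both. Protein-coding transcripts held 89.4% of the members' TPM in replicate 2 and 90.2% in replicate 1. Transcripts annotated with a retained intron held 6.59% in replicate 2 and 5.43% in replicate 1, processed transcripts 0.65% in replicate 2 and 0.91% in replicate 1, and targets of nonsense-mediated decay 0.40% in replicate 2 and 0.34% in replicate 1. The remaining 2.96% in replicate 2 and 3.09% in replicate 1 fell on 19 transcripts whose type was not matched, among them the leading transcript of Rpl13a. The 5 members with the lowest share in their leading transcript were Rpl30, Rpl27, Rpl5, Rps19 and Rpl15.

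In few members a form other than protein coding led. For Rps2, the retained-intron transcript Rps2-203 held 62.3% of the gene's TPM in replicate 2 and 52.9% in replicate 1. It was at 2544 TPM in replicate 2 and 1488 in replicate 1, a log2 ratio of 0.77, and the coding transcript Rps2-208 was at 1467 TPM in replicate 2 and 1257 in replicate 1, a log2 ratio of 0.22, so that most of the gap in Rps2 between the libraries lay in the retained-intron form. For Rps9, which lies near the mRNA entry, Rps9-206 held 57.4% in replicate 2 and 59.95% in replicate 1. For Rpl5, Rpl5-202 held 46.1% in replicate 2 and 49.0% in replicate 1. For Rpl12, Rpl12-201, a target of nonsense-mediated decay, held 67.6% in replicate 2 and 60.6% in replicate 1, and for Rps6, the processed transcript Rps6-202 held 80.7% in replicate 2 and 82.2% in replicate 1.

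**Figure D4:**
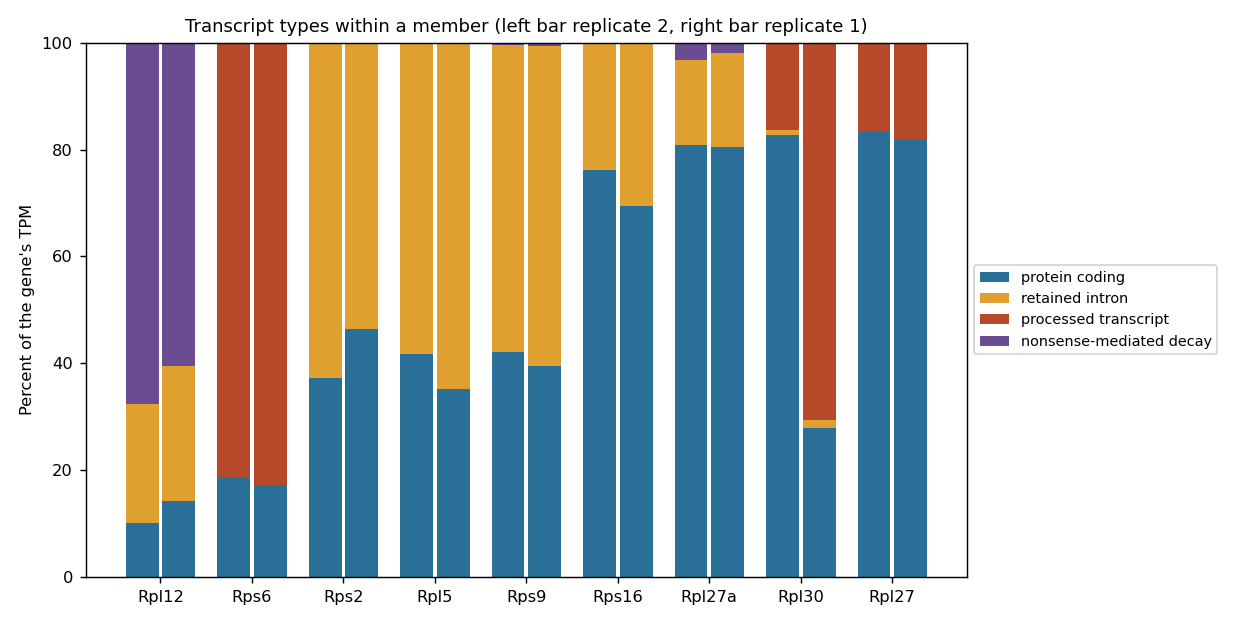
Share of the gene's TPM, in percent, by annotated transcript type for 9 members in which types other than protein coding held over 15% in either library, with replicate 2 left of replicate 1. For Rpl30 the processed transcript Rpl30-205 holds 16.3% in replicate 2 and 70.6% in replicate 1, and in the other genes drawn the share of types other than protein coding differs between the libraries by at most 9.06 percentage points.

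These shares are per length, and the non-coding forms are often shorter than the coding ones. Rps2-203 is 637 bases long with 62348 counts in replicate 2 and 27977 in replicate 1, and Rps2-208 is 998 bases long with 66525 counts in replicate 2 and 43701 counts in replicate 1, so by counts the coding form led in both libraries. Rps9-206 is 378 bases long with 9144 counts in replicate 2 and 7035 counts in replicate 1, against 20911 counts in replicate 2 and 14390 counts in replicate 1 for the coding Rps9-201 of 755 bases. Rpl5-202 is 854 bases long with 246 counts in replicate 2 and 201.5 in replicate 1. The coding Rpl5-201, of 2045 bases, led it by counts, with 597 in replicate 2 and 412 in replicate 1. The same length correction runs through the whole family. Over the 77 members that are not paralogs, TPM fell with effective length, with Spearman's rho of -0.38 in replicate 2 and -0.36 in replicate 1, whereas expected counts had a rho of 0.13 in replicate 2 and 0.12 in replicate 1. Genes are not independent replicates, and these correlations only describe the set. The deposited 95% bounds on TPM were widest, among members above a mean of 10 TPM, for Rpl5, Rps27, Rpl22l1, Rpl27 and Rpl22. As a share of the value they spanned 23.6% in replicate 2 and 34.2% in replicate 1 for Rps27, 24.7% in replicate 2 and 32.1% in replicate 1 for Rpl22l1, 17.4% in replicate 2 and 19.3% in replicate 1 for Rpl27 and 13.2% in replicate 2 and 14.9% in replicate 1 for Rpl22.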

How the data were processed

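Each library came with a deposited table of genes and one of transcripts, made on build mm10 with GENCODE M4 per the deposited notes. With a quantifier not given in the sources used here, any more than the aligner, the authors estimated expected counts per gene and transcript, which need not be whole, and deposited TPM and FPKM, both corrected for effective length. Each transcript's percent of its gene was used as deposited. The bounds on TPM are a deposited signal column, and the posterior SD is a deposited score. Junction and contig lists on build mm9 were not used here. Symbols, types and positions came from GENCODE M21 by gene identifier, and 42462 of 43346 genes had a symbol.

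The members, lists and comparisons were chosen with earlier results of these data known. Log2 ratios used a pseudocount of 1 TPM over genes at a mean of at least 1 TPM, and 2-fold was the limit. No ratio was tested, since each is 1 library against 1. A chi-square statistic per gene with at least 20 counts, at its 95% limit, served only to check that the libraries were not the same one. Coding sequences were aligned with blastn 2.17.0 (word size 20) at 95% identity and 80% coverage. Start windows came from RefSeq (GRCm38.p6). The rule for named genes took the 8 highest and 8 lowest members, the 5 largest ratios in each direction at a mean of at least 10 TPM, every paralog with its parent, and the 5 widest bounds. It also took the 5 lowest leading transcripts, and of other lists the highest gene and those at least 2-fold apart. A few genes that the rule took are not reported here. Other members were named for their roles or their copies after their values were seen. As alternatives, rounded expected counts were scaled by TMM in edgeR 4.0.16 or by DESeq2 1.42.0 size factors, under R 4.3.3. Python 3.11.15 ran the rest, with matplotlib 3.10.9 for figures, pandas 2.3.3, numpy 2.4.6 and scipy 1.17.1. The ratio step was tested on simulated data.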

Additional observations from a re-analysis of the deposited data

How the results depend on the processing

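No paired analysis was possible because the 2 libraries form 1 group. The share of TPM held by the 84 members, 6.66%, was 6.47% to 6.85% when either library was left out. It became 7.34% without mitochondrial genes and spike-ins in the total, 7.15% with pseudogenes named after these genes, 7.73% with near-identical copies, and 2.85% as a share of expected counts, which are not divided by length. The summed 60S to 40S ratio, 1.14, was 1.10 to 1.18 with either library left out, 1.36 by expected counts and 0.673 as a ratio of median TPM over members at 100 TPM or more. The median log2 ratio, 0.08, became 0.25 by FPKM, 0.23 by TMM and 0.23 by DESeq2 size factors. The median of all genes moved with it. The count of members at least 2-fold apart, 0, became 1 by FPKM, 1 by TMM and 1 by DESeq2 size factors, each time Rpl30, and 2 at a 1.5-fold limit. Posterior means, other pseudocounts, no filter, and only members at 100 TPM or more moved none of the 4 results past its limit. For the share and the 60S to 40S ratio the limit was the SD over the libraries. The median log2 ratio and the count have no SD. The limit for that median was its own size divided by the square root of 2, and the count had to stay at 0. Of the 81 member ratios, 53 kept their sign under every alternative. The alternative with near-identical copies was chosen after seeing the data. A wider member list, with ribosomal proteins under other symbols, is not reported here. Leaving out a library was not run for the median ratio or the count, since it leaves no ratio. Depth limits Rpl3l, Rpl39l and Rpl10l, with at most 7 counts, and Rps27, with 334 counts in replicate 2 and 163 counts in replicate 1.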
